A study of Rattus norvegicus with 448 samples.

Results

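The 6 genes of fatty acid synthesis described here were followed across rat livers: Fasn, Acaca, Acly, Scd, Me1 and Srebf1. They were picked by Ensembl gene ID, and all 6 IDs were found among the 16796 genes of the expression table. These are ENSRNOG00000045636 for Fasn, ENSRNOG00000034013 for Acaca, ENSRNOG00000016924 for Acly, ENSRNOG00000013552 for Scd, ENSRNOG00000009715 for Me1 and ENSRNOG00000003463 for Srebf1. All 6 passed the filter on low values, which asks for 1 FPKM in no fewer than 10% of livers and which 12234 genes passed. FPKM counts sequenced fragments per kilobase of a gene after scaling each library, so levels of different genes can be compared.

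The libraries came from total RNA of liver of outbred rats, which differ genetically from one another, taken at 17 weeks of age. The study mapped loci for metabolic traits in such rats and used liver expression to look for genes behind those loci. All libraries form 1 group: the labels give no treatment, genotype, sex, diet or feeding state, so the comparisons possible are between genes, across livers, and among livers that share an identifier. There were 430 labelled libraries with a column in the table, and 18 others are not analysed here. The labels do not say that each library is a separate animal, so the p-values measure the spread between libraries, which may in part be technical.

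The liver makes fatty acids from citrate that leaves the mitochondria. ATP citrate lyase (Acly) splits citrate into acetyl-CoA, acetyl-CoA carboxylase (Acaca) turns acetyl-CoA into malonyl-CoA, and fatty acid synthase (Fasn) joins these units into palmitate, with NADPH that malic enzyme (Me1) helps to supply. Stearoyl-CoA desaturase (Scd) then turns saturated chains into monounsaturated fatty acids. Srebf1 encodes SREBP-1, a transcription factor that insulin and feeding raise in the liver and that binds sterol regulatory elements and E-boxes near genes of this pathway.

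Promoters are shown for the 4 of the 6 genes that were found in the RefSeq table of build GRCr8: Acly, which followed Fasn most closely, Scd, which varied most, Me1, which varied apart from Srebf1, and Srebf1 itself, which has 2 start sites there. Gene-level values do not separate transcripts from those 2 starts. Each sequence runs 5′ to 3′ on the strand of the gene, from 250 bases before the start to 50 after it. Capitals mark CCAAT boxes (CCAAT or, on the other strand, ATTGG) and GC boxes (GGGCGG or CCGCCC).
Acly, chr10:85963582-85963881, minus strand: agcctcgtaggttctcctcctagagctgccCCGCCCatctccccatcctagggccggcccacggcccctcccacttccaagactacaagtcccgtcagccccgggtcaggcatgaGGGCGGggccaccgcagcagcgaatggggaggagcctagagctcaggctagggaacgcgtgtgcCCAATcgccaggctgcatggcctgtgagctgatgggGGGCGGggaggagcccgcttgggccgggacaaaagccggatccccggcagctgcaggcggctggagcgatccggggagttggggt
Scd, chr1:253231682-253231981, minus strand: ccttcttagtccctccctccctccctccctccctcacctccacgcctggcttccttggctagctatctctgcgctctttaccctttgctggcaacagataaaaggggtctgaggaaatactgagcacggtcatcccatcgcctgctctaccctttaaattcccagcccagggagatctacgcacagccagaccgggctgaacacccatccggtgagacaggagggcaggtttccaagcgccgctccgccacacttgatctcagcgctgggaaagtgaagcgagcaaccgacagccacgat
Me1, chr8:96540195-96540494, minus strand: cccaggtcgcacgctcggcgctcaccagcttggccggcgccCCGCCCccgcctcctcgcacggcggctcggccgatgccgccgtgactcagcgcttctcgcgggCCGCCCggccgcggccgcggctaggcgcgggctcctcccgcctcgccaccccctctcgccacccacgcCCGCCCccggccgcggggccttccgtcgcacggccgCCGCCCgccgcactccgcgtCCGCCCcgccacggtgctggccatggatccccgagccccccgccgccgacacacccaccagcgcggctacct
Srebf1, start 1, chr10:45529115-45529414, minus strand: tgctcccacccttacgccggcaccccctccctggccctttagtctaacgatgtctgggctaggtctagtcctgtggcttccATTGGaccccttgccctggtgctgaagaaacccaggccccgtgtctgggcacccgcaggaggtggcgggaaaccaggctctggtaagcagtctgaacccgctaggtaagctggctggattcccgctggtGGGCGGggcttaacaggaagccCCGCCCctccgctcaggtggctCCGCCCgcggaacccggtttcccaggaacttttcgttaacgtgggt
Srebf1, start 2, chr10:45518961-45519260, minus strand: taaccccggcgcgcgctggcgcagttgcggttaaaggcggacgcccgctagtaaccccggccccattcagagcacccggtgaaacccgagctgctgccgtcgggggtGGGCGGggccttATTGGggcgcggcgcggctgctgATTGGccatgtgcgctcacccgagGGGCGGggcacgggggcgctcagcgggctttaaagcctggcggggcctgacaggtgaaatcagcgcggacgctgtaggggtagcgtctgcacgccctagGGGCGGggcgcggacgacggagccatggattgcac

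The Acly window held 1 CCAAT box, 71 bases before the start, and 3 GC boxes. Me1 held 5 GC boxes and no CCAAT box, and 81.7% of its bases were G or C. At the first Srebf1 start there were 1 CCAAT box and 3 GC boxes, and at the second 2 CCAAT boxes and 3 GC boxes. Scd matched none of the searched letters, and its window had the lowest G and C content of the 5, 58.3%, against a median of 51.7% over all promoters. Searched on both strands, the sterol regulatory element TCACCCCAC, its form with a free base TCACNCCAC, the E-box CACGTG and the longer E-box ATCACGTGA, which contains CACGTG, were in none of the 5 windows. Apart from that free base, only exact letters were searched, so sites that deviate from them would be missed. Sites outside the windows were not searched. The absence of these letters therefore does not show that the promoters lack such elements. Among 33469 RefSeq promoters of the same length, 37.49% held a CCAAT box, 33.06% a GC box, 6.42% the E-box, 0.25% the longer E-box, 0.48% the sterol regulatory element and 1.12% its free form, which contains the strict one.

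Depth was reconstructed from the steps in which FPKM values of a gene rise: 99.98% of all values were whole reads within 0.001 of a read. On this scale libraries had 186306 to 61305141 reads, with a median of 24579990 and quartiles of 19705698 and 28658628. Even numbers made up 76% of the counts from 1 to 8, so the ends of a pair may have been counted apart, and the true number of fragments may be lower. Genes above 0 numbered 7108 to 16613 per library. The 22 libraries with the fewest such genes, 14117 or fewer, are named below where a result changed without them. Among all 92235 pairs of libraries none agreed within sampling noise, the lowest chi-square per degree of freedom being 3.74.

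The 6 genes were present in nearly every liver, at levels that differed by more than an order of magnitude between genes. Scd was the most abundant, with 3.54 FPKM in the lowest library, a median of 83.5 and 681.6 in the highest. Srebf1 had a lowest value of 8.62, a median of 31.9 and a highest value of 89.7 FPKM. Acly ran from 10.1 through a median of 23.6 to 94.7 FPKM. Those 2 ranges overlap almost wholly.

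Me1 lay beside Acly, with 6.57 FPKM in the lowest library, a median of 22.3 and 81.2 in the highest. Fasn was lower, from 1.88 through a median of 8.30 to 92.8 FPKM. Acaca, which supplies the malonyl-CoA for Fasn, was the lowest of the 6, from 0 through a median of 3.85 to 14.3 FPKM. The zero was a single library, LSW_226, which also had the fewest reads of all. Acaca had under 100 reads in 45 libraries, against 2 to 5 libraries for each of the other genes.

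**Figure D1:**
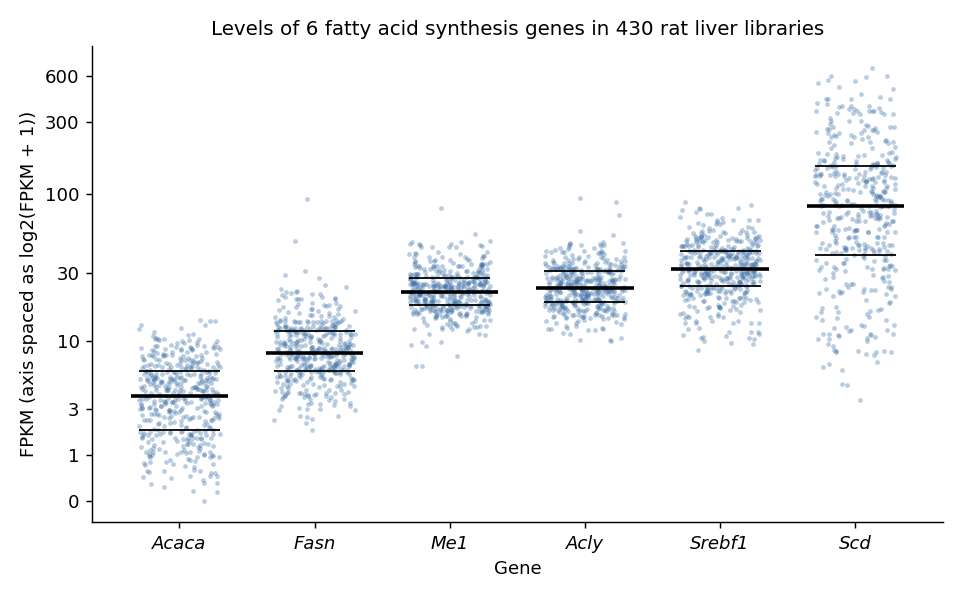
Level of each of the 6 genes in every library, 1 point per library (n = 430), on an FPKM axis spaced as log2(FPKM + 1). Long bars are medians and short bars quartiles: Scd spreads over 3.54 to 681.6 FPKM, while the quartiles of Me1, 17.9 and 27.6, lie close together.

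The order of the levels held within single livers for some genes and not for others. Fasn was below Acly in 430 of 430 libraries and above Acaca in 410 of them. Acly and Me1 could hardly be ordered: Acly was higher in 57.7% of libraries and Me1 in 42.3%, and the mean difference on the log2(FPKM + 1) scale, 0.10, was smaller than its SD over libraries, 0.54. Srebf1 exceeded Acly in 75.8% of libraries and Me1 in the same share, with mean log2 differences of 0.37 (SD 0.57) and 0.47 (SD 0.76), both within 1 SD. Scd exceeded Srebf1 in 80% of libraries by a mean of 1.22 (SD 1.41). Fasn lay below Me1 by a mean of 1.31 (SD 0.67) and above Acaca by 1.04 (SD 0.76), and in both cases the difference was larger than its SD.

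Scd, the desaturase, varied far more than the genes that make its substrate. Its upper quartile, 153.8 FPKM, was 3.87 times its lower quartile, 39.7 FPKM. Its SD over libraries was 1.48 on the log2(FPKM + 1) scale, higher than that of every one of the 500 tested genes nearest to it in mean level, whose median SD was 0.37. Acaca had an SD of 0.83, above 91.4% of its 500 nearest genes, Srebf1 of 0.60, above 88.2%, and Fasn of 0.66, above 84.4%. Acly, with an SD of 0.47, and Me1, with 0.46, each exceeded 72.6% of their nearest genes. Counting noise of the recovered reads came to between 0.03% of the variance, for Scd, and 1.17%, for Me1. As in any bulk tissue, a lower level could come from fewer cells that use the gene or from less RNA per cell, and these cannot be told apart.

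Single livers stood at the top of several genes at once. Library LSW_392 had the highest Fasn, 92.8 FPKM, and the highest Acly, 94.7 FPKM, and its Srebf1, 84.5 FPKM, was above that of 99.5% of libraries. Its Me1, 24.3 FPKM, was above that of only 59.3%. Library LSW_429 had the next highest Fasn, 48.8 FPKM, the next highest Acly, 89.2, and the next highest Scd, 602.4, together with the highest Me1, 81.2 FPKM. Its Acaca, 2.83 FPKM, was above that of 35.8% of libraries, so both libraries were high in Fasn and Acly and differed in Acaca and Me1. At the other end, LSW_84 had the lowest Fasn, 1.88 FPKM, with Acly at 14.5 FPKM and Scd at 23.9 FPKM.

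Fasn and Acly rose and fell together more closely than any other pair of the 6. Over 430 libraries their log2 levels had a Pearson r of 0.886 and a Spearman rho of 0.878 (p = 1e-05 for each, two-sided permutation test, the smallest p that 100000 permutations can give). Of the 12233 other genes tested, none had a higher r with Fasn than Acly, and none a higher r with Acly than Fasn. In limma, Acly changed by 0.63 log2 units per log2 unit of Fasn (SE 0.016, adjusted p = 8.83e-141, Benjamini-Hochberg over all genes tested). The log2 difference between Fasn and Acly had an SD of 0.32, less than the SD of either gene alone. When the series was split by title number into 4 consecutive blocks of nearly equal size, r was 0.896, 0.885, 0.857 and 0.916. Without the 2 libraries farthest from the median of Fasn it was 0.877.

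**Figure D2:**
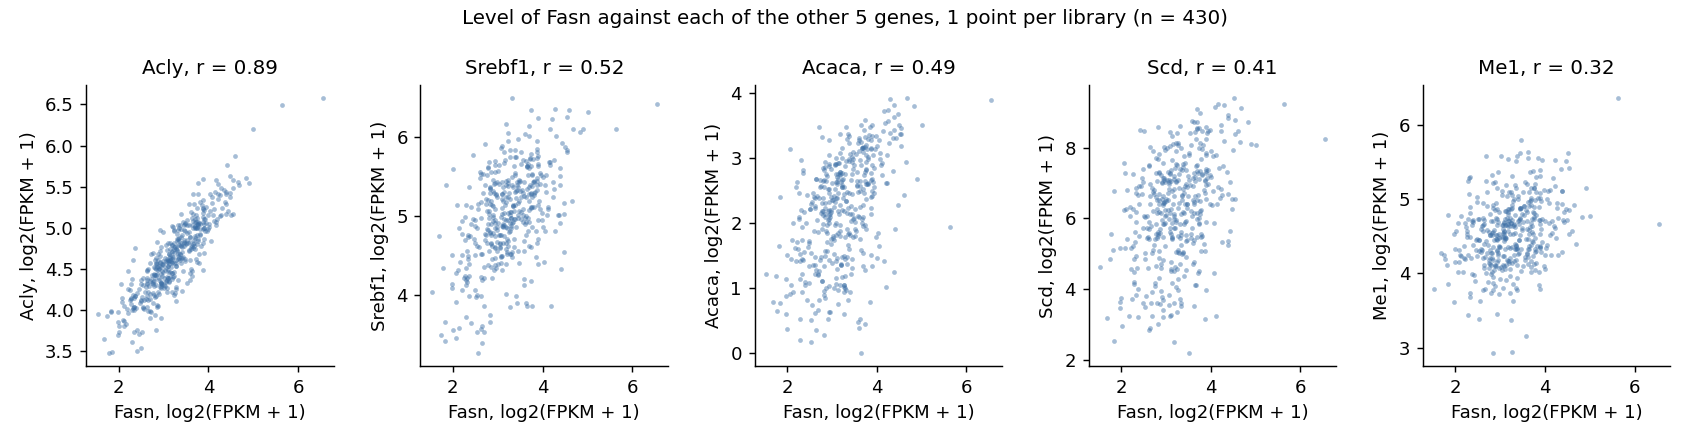
Log2 level of Fasn on the horizontal axis against that of each of the other 5 genes, 1 point per library (n = 430). The points of Acly lie along a narrow band (r = 0.886), those of Scd and Me1 are widely scattered (r = 0.414 and 0.320).

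The other genes followed Fasn less closely, in the order Srebf1, Acaca, Scd and Me1. Srebf1, the regulator, had r = 0.523 and rho = 0.484 with Fasn, and 15 of the 12233 genes had a higher r. Acaca had r = 0.494 and rho = 0.490, Scd r = 0.414 and rho = 0.384, and Me1 r = 0.320 and rho = 0.310 (permutation p = 1e-05 for each of these 8 values). All 5 genes passed limma's slope test on Fasn in the upward direction. Slopes on Fasn were called in 68.4% of all genes tested, 38.5% upward, so a call alone sets these genes little apart, and r tells more. The median r with Fasn was 0.494 over the 5 genes and 0.027 over all genes tested, and 90% of all genes lay between -0.253 and 0.286.

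Srebf1 was related to the synthesis enzymes, least distinctly to Scd, and, taken as a pair, not detectably to Me1. Its r was 0.524 with Acaca, 0.523 with Fasn, 0.455 with Acly and 0.330 with Scd. Slopes on Srebf1 were called in 4 of 5 genes and in 81% of all genes, so a call alone sets these genes little apart. Of all genes, 0.793% had a higher r with Srebf1 than Acaca had, and 0.826% a higher r than Fasn. For Acly this share was 4.28% and for Scd 20.2%. With Me1, the r of Srebf1 was 0.014 (rho -0.008, permutation p = 0.78 and 0.88), and it lay between -0.076 and 0.135 in the 4 blocks. The limma adjusted p was 0.799 for the slope of Me1 on Srebf1 and 0.874 for that of Srebf1 on Me1. The relation of Srebf1 to Acly was uneven over the series: r was 0.452, 0.639, 0.164 and 0.485 in the blocks. That of Srebf1 to Acaca was 0.550, 0.642, 0.203 and 0.604, also lowest in the third block. Differences between blocks were not tested.

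Acaca was near Acly, with r = 0.594 and rho = 0.586, but most of the transcriptome was related to it. Slopes on Acaca were called in 90.6% of all genes tested, and the 5 genes were all among them. With Acaca, 25.9% of all genes had a higher r than Acly did, 30% a higher r than Srebf1 and 31.9% a higher r than Fasn. Seen the other way, just 0.106% of genes had a higher r with Acly than Acaca had, and 0.188% a higher r with Fasn. Slopes on Acly were called in 80.8% of all genes and in 5 of the 5 others. The low rank of the pathway among the genes closest to Acaca goes with a very large set of genes that Acaca follows.

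Without covariates, slopes on Scd and Me1 were called in fewer genes than slopes on the other 4. Slopes on Scd were called in 15.9% of all genes (6.83% upward) and in 5 of the 5 other genes, all upward. Without the 22 libraries with the fewest genes the share was 43.6%, and with limma-voom on the recovered reads 725 genes were called upward and 2100 downward, against 836 and 1112. Fasn was the gene with the ninth highest r with Scd (r = 0.414, 0.0654% of genes higher), and Acly the 23rd (r = 0.349). Slopes on Me1 were called in 20.3% of all genes and in 3 of 5: Acly (r = 0.325), Fasn (r = 0.320) and Scd (r = 0.198). With limma-voom 1954 genes followed Me1 upward and 510 downward, against 1295 and 1190. Upper quartile rescaling gave 4183 calls for Me1 and the use of 1 mean per identifier 982, against 2485. The order changed with covariates: with the first component 2895 genes followed Scd, 3601 Me1 and 2051 Acly, and with 5 components 2862 followed Scd, 2779 Me1, 2428 Fasn and 2141 Acly.

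Of the 15 pairs of genes, 13 passed the slope test with either gene as the regressor. The pairs that did not were Me1 with Srebf1 and Me1 with Acaca (r = 0.114, adjusted p = 0.0203 and 0.0747). Slopes were called in 68.4% of all genes on Fasn, 80.8% on Acly, 81% on Srebf1 and 90.6% on Acaca. The count therefore says little about pairs among these 4 genes. On Scd and Me1 the shares were 15.9% and 20.3%. The share of all pairs of genes that pass both ways was not computed. Within the 6 genes, the other 5 together accounted for 82.6% of the variance of Acly and 82.1% of that of Fasn. For Acaca it was 46%, for Srebf1 41.8%, for Scd 20.1% and for Me1 15.3%. The leading axis of the 6 genes held 51.3% of their joint variance, with weights from 0.214, for Me1, to 0.512, for Fasn. The next axis held 17.5% and set Me1 (weight 0.819) against Srebf1 (-0.448) and Acaca (-0.310). Acly and Fasn remained linked with the other 4 genes held fixed (partial r = 0.820), while Acly and Srebf1 had a partial r of -0.159, Fasn and Srebf1 of 0.322, Fasn and Acaca of -0.207 and Acaca and Acly of 0.426. With the first component held fixed as well, these were 0.826 for Acly and Fasn, -0.215 for Acly and Srebf1, 0.385 for Fasn and Srebf1, 0.379 for Fasn and Acaca and -0.094 for Acaca and Acly. The sign of the partial r of Acaca with Fasn and with Acly thus turned with the component. Me1 and Srebf1, with a plain r of 0.014, had a partial r of -0.178 with the other 4 genes held fixed. It was -0.197 with the component held fixed as well. The partial values were not tested.

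The genes most like each member were mostly not members. After Acly, the gene with the highest r with Fasn was ENSRNOG00000006787 (r = 0.681, adjusted p = 2.61e-56), an abundant gene with 42.3 to 329.5 FPKM over libraries. The gene with the lowest r with Fasn, ENSRNOG00000018566, had r = -0.507, a median of 506.9 FPKM and a range from 293.8 to 878.1. It was also among the 5 genes with the lowest r with Acly (-0.508), Srebf1 (-0.605) and Scd (-0.432). ENSRNOG00000020420 had r = 0.708 with Srebf1, 0.759 with Acaca and 0.474 with Fasn, and r = 0.034 with Me1. These IDs were chosen after their values were seen, and the sources used here do not pair them with a symbol.

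Acaca differed from the other 5 in how it moved with the library as a whole. The first principal component of all tested genes other than these 6 held 45.8% of the variance over libraries. Its sign was set so that the score rises with the number of genes above their own mean. Acaca had r = 0.906 and rho = 0.935 with the component (permutation p = 1e-05), and 82.1% of the variance of Acaca was shared with it. For Srebf1 r was 0.442, for Acly 0.433 and for Fasn 0.258 (permutation p = 1e-05 for each, limma adjusted p = 6.72e-22, 5.49e-21 and 6.74e-08). Scd had r = 0.071 (permutation p = 0.14) and Me1 r = 0.064 (permutation p = 0.19). By rank, rho was 0.098 for Scd (permutation p = 0.043) and 0.031 for Me1 (permutation p = 0.52). Scd thus went weakly with the component by rank and not detectably by r. Once the 22 libraries poorest in genes were dropped, r was 0.145 for Scd and 0.028 for Me1. In the blocks r lay between -0.058 and 0.266 for Scd and between -0.148 and 0.214 for Me1. These changes were not tested. Slopes on the component were called in 91.7% of all genes, and 4 of these 6 genes were among them. Of all genes, 7.72% had a larger absolute r with the component than Acaca, and 94.1% and 94.7% a larger one than Scd and Me1.

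**Figure D3:**
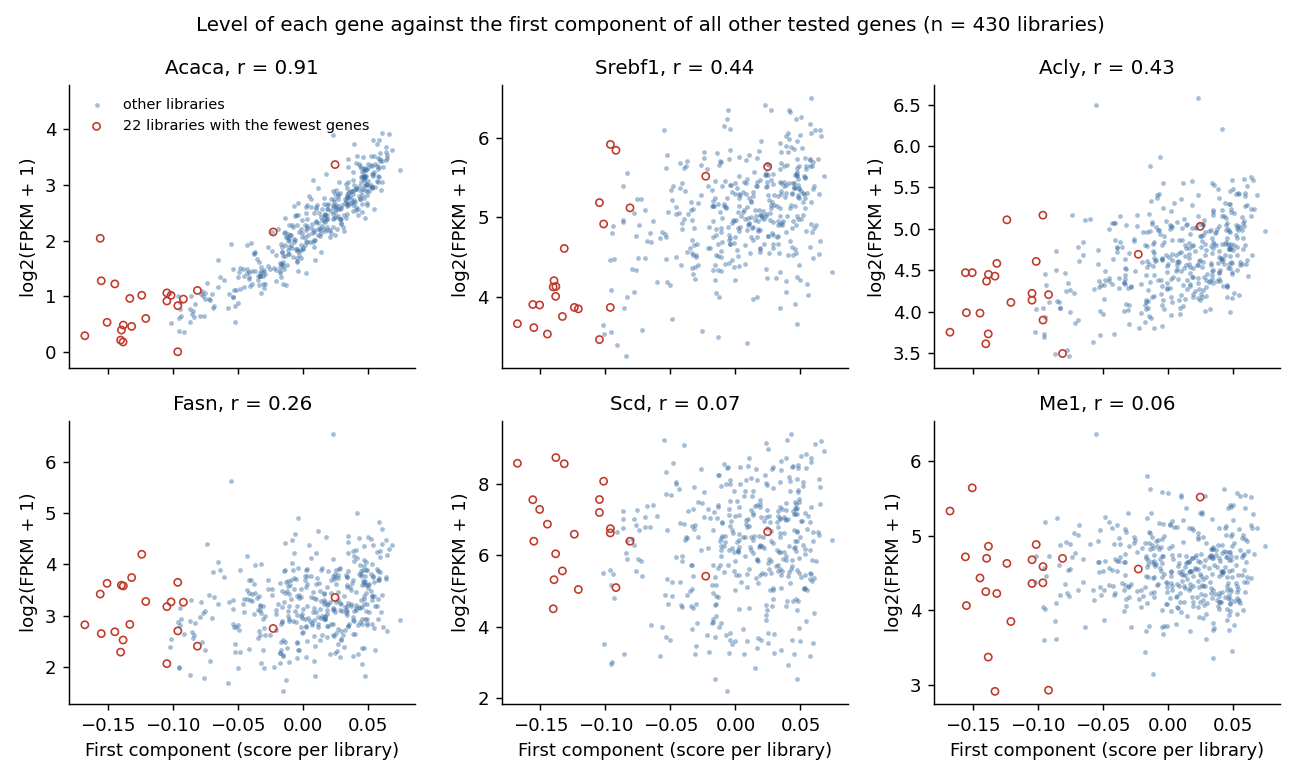
Log2 level of each gene against the score of a library on the first principal component of all other tested genes (n = 430). Red circles are the 22 libraries with the fewest genes: Acaca climbs along the whole axis (r = 0.906), while Scd and Me1 show little slope (r = 0.071 and 0.064).

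Depth went with the genes in nearly the same order. With the log10 number of recovered reads, r was 0.439 for Acaca, 0.256 for Srebf1, 0.186 for Acly, 0.112 for Fasn, 0.063 for Me1 and -0.042 for Scd. The permutation p was 1e-05 for Acaca and Srebf1, 0.00021 for Acly, 0.021 for Fasn, 0.19 for Me1 and 0.39 for Scd. By rank, rho was 0.50 for Acaca, 0.23 for Acly, 0.18 for Srebf1, 0.16 for Fasn, 0.14 for Me1 and -0.03 for Scd. The permutation p of rho was 1e-05 for Acaca and Acly, 0.00021 for Srebf1, 0.00065 for Fasn, 0.0029 for Me1 and 0.5 for Scd. Me1 thus went with depth by rank and not detectably by r. After adjustment over all genes tested in limma, 4 of 6 passed, with 0.0232 for Fasn and 0.405 for Scd, and 87.4% of all genes did. In the blocks, r of Acaca with log10 reads was 0.471, 0.462, 0.460 and 0.508, and that of Fasn 0.189, -0.00075, 0.203 and 0.123. Without the 2 libraries farthest from the median depth, r was 0.504 for Acaca and 0.154 for Fasn. With the number of genes above 0, r was 0.475 for Acaca and between -0.055 and 0.28 for the others, and 4 of 6 genes passed, against 88.5% of all. With the share of FPKM taken by the top 100 genes it was -0.378 for Acaca, -0.170 for Srebf1, -0.149 for Acly and -0.132 for Me1, and those 4 passed, against 85.9% of all. In all, 30 relations between these genes and library measures were computed, title number included. The part of depth and of the component in the levels of Acaca was not tested beyond the fits that follow.

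With the first component as a covariate, some relations of Acaca and Srebf1 to the other genes had a higher r and some a lower one. The r of Fasn and Acaca rose from 0.494 to 0.637, and Acaca was then the gene with the sixth highest r with Fasn. That of Acaca and Scd went from 0.240 to 0.417, and that of Acaca and Acly from 0.594 to 0.530. The r of Acaca and Srebf1 went from 0.524 to 0.325 and that of Acly and Srebf1 from 0.455 to 0.326, while that of Scd and Srebf1 was 0.334, against 0.330, that of Fasn and Acly 0.889 and that of Fasn and Scd 0.411. Slopes on Fasn were then called in 31.7% of all genes, on Acly in 16.8%, on Srebf1 in 52.8%, on Acaca in 61.4%, on Scd in 23.7% and on Me1 in 29.4%. Of the 15 pairs 14 passed, Me1 and Srebf1 being the exception (r = -0.016, adjusted p = 0.84 with Me1 and 0.794 with Srebf1 as the regressor).

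**Figure D4:**
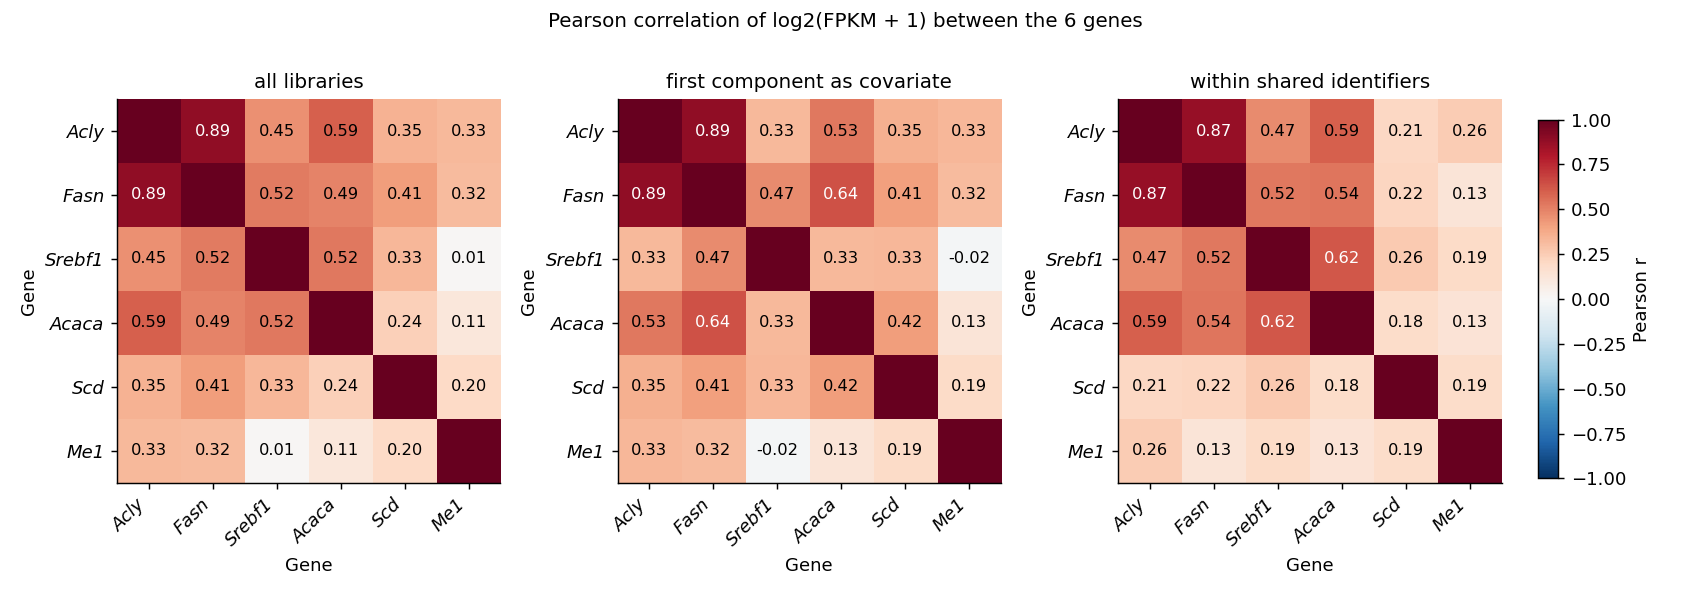
Pearson r of log2(FPKM + 1) for each pair of the 6 genes over all 430 libraries (left), with the first component as a covariate (middle) and within shared identifiers (right). Fasn and Acly are at 0.87 or above in every panel, and Me1 and Srebf1 are at 0.01, -0.02 and 0.19.

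Livers with a common first part of their identifier in the labels were alike in 5 of the 6 genes. The labels do not say what that part means. There were 92 identifiers common to several libraries, 83 of them with 2 libraries and 9 with 3. The intraclass correlation, which is the fraction of the variance found between rather than within identifiers, was 0.406 for Scd, 0.388 for Me1, 0.370 for Fasn, 0.30 for Acly, 0.263 for Srebf1 and 0.109 for Acaca. In limma's moderated F test the adjusted p was 2.61e-06 for Scd, 0.000368 for Me1, 0.000223 for Fasn, 0.00157 for Acly, 0.00487 for Srebf1 and 0.09 for Acaca. Of all genes tested 54.7% passed, with a median intraclass correlation of 0.185. Higher values than that of Scd were found in 5.04% of all genes, higher than Me1 in 6.19% and higher than Fasn in 7.7%, against 76.4% for Acaca.

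Pairs of libraries show the same as folds of FPKM + 1, which understate folds of FPKM where levels are low, as for Fasn. Levels of Scd differed by a median of 1.75-fold between the 110 pairs that shared an identifier and by 2.70-fold between distant pairs. For Me1 these folds were 1.17 and 1.34, for Fasn 1.37 and 1.53, for Srebf1 1.34 and 1.48, and for Acly 1.30 and 1.36. The title numbers of sharing libraries were also near each other, a median of 3 apart. In pairs at most 6 apart with different identifiers, the correlation was -0.010 for Scd, 0.032 for Me1, 0.029 for Fasn, 0.024 for Srebf1 and 0.018 for Acly. In sharing pairs it was 0.498, 0.429, 0.364, 0.346 and 0.267, in the same order.

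Acaca was again apart. Its correlation was 0.144 over sharing pairs and 0.176 over neighbouring pairs with different identifiers, so likeness in Acaca went with position in the series as much as with the identifier. With the first 5 components as covariates, the intraclass correlation of Acaca was 0.294 (adjusted p = 0.00458, the lowest over its alternatives, the highest being 0.258), and all 6 genes passed, against 56.1% of all genes. Without the 22 libraries with the fewest genes 26.3% of all genes passed, and Me1 had an intraclass correlation of 0.555 and Srebf1 of 0.372, against 0.388 and 0.263, while that of Acaca was 0.073.

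**Figure D5:**
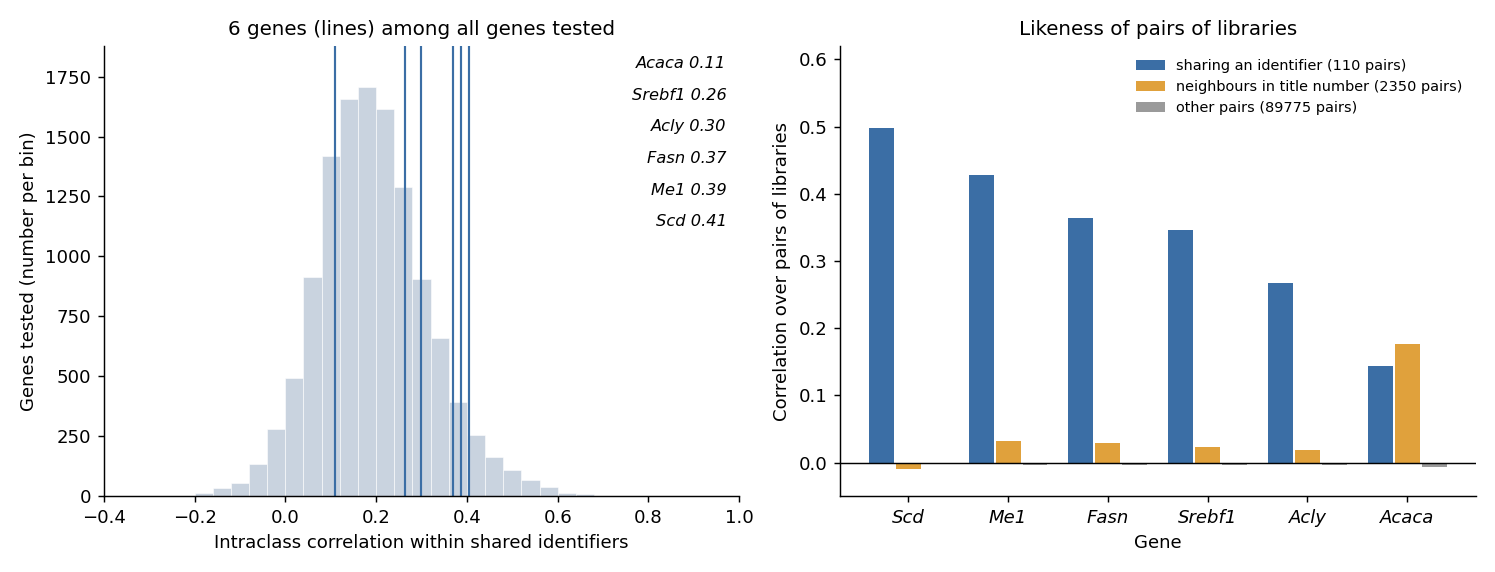
Left, intraclass correlation within shared identifiers for all genes tested (bars, number of genes per bin) with the 6 genes as lines. Right, correlation of log2 levels over pairs of libraries that share an identifier (110 pairs), over neighbours in title number with different identifiers (2350) and over other pairs (89775): in all genes but Acaca, sharing pairs stand well above neighbours.

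Within identifiers, as over all libraries, the relations that involve Scd or Me1 had the lowest r. With the identifier as a factor, over the libraries that share one, r was 0.871 for Fasn and Acly, 0.624 for Acaca and Srebf1, 0.595 for Acaca and Acly and 0.525 for Fasn and Srebf1. For Scd it was between 0.180 and 0.258 with each of the other 5 genes, and 0 of them passed the slope test on Scd, where 0.163% of all genes did. For Me1 it was between 0.132, with Fasn, and 0.257, with Acly, and 0.187 with Scd, against 0.198 over all libraries. The number of pairs that passed both ways was 7 of 15, in a fit with fewer libraries than that over all 430. For the slope on Fasn, called in 53.6% of all genes there, 4 of 5 passed, the exception being Me1 (r = 0.132, adjusted p = 0.249). The 5 others passed the slope on Acly, called in 69.4% of all genes, 4 that on Srebf1 (75.2%), 3 that on Acaca (82.7%) and 1 that on Me1 (34.1%). Differences between these values and those over all libraries were not tested.

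Over the order of the libraries 1 of the 6 genes had a trend past the threshold. Me1 rose by 0.060 log2 units per 100 title numbers (SE 0.017, limma adjusted p = 0.0112, n = 430), where 8.18% of all genes tested passed. Within the 4 blocks its r with title number was 0.027, -0.024, 0.126 and -0.049, so no steady rise was seen inside them. Fasn had a slope of 0.067 (adjusted p = 0.0622), larger than that of Me1, and Srebf1 of -0.061 (adjusted p = 0.0692). As single values, r with title number was 0.133 for Fasn (rho = 0.123, permutation p = 0.006 and 0.01), -0.130 for Srebf1 (rho = -0.131, permutation p = 0.0074 and 0.0067) and 0.168 for Me1 (rho = 0.156, permutation p = 0.00049 and 0.0011), before adjustment. In the blocks r was 0.134, -0.051, 0.129 and -0.048 for Fasn and -0.092, -0.177, 0.028 and -0.091 for Srebf1. Srebf1 passed with the first 5 components as covariates (-0.087, adjusted p = 4.23e-05), as did 25.1% of all genes, and without the 2 libraries highest in Fasn (-0.067, adjusted p = 0.0357), as did 8.28%. Its adjusted p lay between 4.23e-05 and 0.0966 over the alternatives, and that of Me1 between 0.00116 and 0.0207. The slopes of Acly, Scd and Acaca were 0.0067, 0.013 and -0.0020, with adjusted p of 0.892, 0.938 and 0.983. Inside the blocks Acaca was not flat, with r of 0.146, -0.362, 0.043 and 0.047 with title number. For Acly these were 0.075, -0.031, 0.019 and -0.023, and for Scd -0.14, 0.028, 0.053 and 0.167. Relations inside single blocks were not tested.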

How the data were processed

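Liver RNA was sequenced as 37 bp paired-end reads, per the labels' protocols. The submitters' processing notes list the tools STAR, Picard, featureCounts and DESeq2 and no version of any. Genome build, annotation and strandedness were not given in the sources used here. No unit is named in the deposited table. Its values were read as FPKM, since the deposited values of a gene rise in fixed steps, and the step of a library times its median-ratio size factor was constant (coefficient of variation 0.00020, against 0.083 for step times total). FPKM totals ran from 430947 to 1273438. Columns were matched to libraries by identifier, and 1 column that matched no library was not used.

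Tests used log2(FPKM + 1), so changes near 1 FPKM are understated, in limma 3.58.1 (R 4.3.3) with a variance trend, and Benjamini-Hochberg adjustment over all 12234 genes tested, threshold 0.05. Slopes on each gene used robust moderation. The F test over identifiers had a natural spline of title number with 4 degrees of freedom as covariate. Permutations used NumPy 2.4.6, with ranks from SciPy 1.17.1. Libraries that share an identifier were alike in many genes: 54.7% of those tested passed the F test. The slope, trend and permutation tests over all libraries take libraries as independent, so their p-values may be too small. Likeness of neighbours with different identifiers was measured for the members only. Its correlation was 0.176 for Acaca and at most 0.032 for the others. Such likeness may make p-values of the F test too small as well. Members, lists and tests were chosen with earlier results of these data known.

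Of the 16796 gene IDs, 0 occurred in the gene name table, so the lists of related pathways and of cell type markers could not be matched, and the labelled tissue was not checked against its markers. The rule for naming genes (members, then genes with a symbol and the highest or lowest r) therefore named the 6 members only. Promoters came from RefSeq for 4 of 6 members. On simulated reads for 12234 genes, the slope test on Fasn recovered 98 of 100 genes with a slope of 0.25 and 100 of 100 with 0.5. The F test recovered 29 of 100 genes with an intraclass correlation of 0.3 and 95 of 100 with 0.5, and the trend test 92 of 100 with 0.1 and 99 of 100 with 0.2 per 100 title numbers. False calls numbered 5 for the slope test, 8 for the F test and 11 for the trend test. The simulated noise was independent between genes and libraries and few genes were changed, unlike in the data. These rates therefore do not give the power or the false calls of the tests on the data. Alternatives were other pseudocounts (5 and 0.5), no filter or 10 FPKM, upper quartile rescaling, leaving out the 22 libraries with the fewest genes, normal scores, components or a spline as covariates, no spline, and 1 mean per identifier. The identifier as a factor, limma-voom on recovered reads, and leaving out the 2 libraries highest in Fasn were chosen after seeing the data.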

Additional observations from a re-analysis of the deposited data

How the results depend on the processing

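No paired analysis was possible because the labels give 1 group, so no replicate number is shared between groups. The fit with the identifier as a factor compares libraries within identifiers. The 8366 genes that followed Fasn (68.4% of those tested) became 4507 at 10 FPKM (73%), where fewer genes were tested. They became 3878 (31.7%) with the first component and 2428 (19.8%) with 5 components as covariates. The 13 pairs that passed became 7 with the identifier as a factor, in fewer libraries. Slopes on single members were called in 15.9% (Scd) to 90.6% (Acaca) of all genes in the main fit. With the identifier as a factor this was 0.163% (Scd) to 82.7% (Acaca). The 6686 genes that differed between identifiers became 3898 at 10 FPKM and 3215 on leaving out the 22 libraries with the fewest genes, and the 1001 genes with a trend became 592, 1528 and, with 5 components, 3072. The cause was not tested for the covariates or for the 22 libraries.

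The r of Me1 and Srebf1, 0.014, was -0.00095 without the 22 libraries, -0.016 with the first component, -0.013 with 1 mean per identifier and -0.0042 without the 2 libraries highest in Fasn. The r of Acaca and Me1 passed the threshold in 4 alternatives, with values of 0.132 to 0.255. Trend slopes of genes that did not pass changed sign: Acaca became 0.0028 with a pseudocount of 5, 0.018 without the 22 libraries and 0.0063 with 5 components, Acly -0.0029 without the 2 libraries highest in Fasn, and Scd -0.016, -0.0053 and -0.00028 without the 22, with 5 components and without those 2. The cause was not tested.

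SDs depended on the pseudocount by construction. With 5 they were 0.468 for Fasn, 0.432 for Acaca, 0.406 for Acly, 1.37 for Scd, 0.394 for Me1 and 0.529 for Srebf1, and with 0.5 they were 0.696 for Fasn and 0.971 for Acaca. Without the 22 libraries they were 0.783 for Acaca, 0.447 for Me1 and 0.573 for Srebf1, and without the 2 libraries highest in Fasn 0.628 for Fasn and 0.453 for Acly. Across all alternatives, 92.8% of the values of r, 53 of 54 intraclass correlations and 39 of 48 trend slopes kept their direction and their side of the threshold. The settings that change only the filter leave these values as they are by construction and can change only the p-values. Part of this agreement was therefore fixed in advance. Acaca had under 100 reads in 45 libraries, although counting noise, 0.526% of its variance, was a larger share for Me1 (1.17%) and Acly (0.749%).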

Other observations

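The 2 livers lowest in Scd were not among the lowest in Fasn or Acly. Library LSW_307 had the lowest Scd of all, 3.54 FPKM, with Fasn at 10.5 FPKM, above 67.2% of libraries, Acly at 29.8 FPKM, above 72.1%, and Srebf1 at 36.9 FPKM, above 61.6%. In LSW_346 Scd was the next lowest, 4.74 FPKM, with Fasn at 8.05 FPKM, above 47% of libraries, and Acly at 26.8 FPKM, above 63.3%. Acaca was above 38.8% and 31.2% of libraries in these 2. The library highest in Srebf1, LSW_7 with 89.7 FPKM, had Scd at 394.4 FPKM, above 96% of libraries, Acaca at 10.2 FPKM, also above 96%, Acly at 31.8 FPKM, above 79.8%, Fasn at 9.02 FPKM, above 57%, and Me1 at 22.3 FPKM, above 49.8%. The library highest in Scd, LSW_231 with 681.6 FPKM, was high in Fasn, 21.8 FPKM, above 97.2% of libraries, in Acaca, above 93.7%, and in Acly, above 86.5%. LSW_308 had the next highest Me1, 54.6 FPKM, with Srebf1 at 20.2 FPKM, above 15.1% of libraries. None of these 5 was among the 22 libraries with the fewest genes. They were picked for their values, which are given as a description.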
